A study of Mus musculus with 6 samples.

Results

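The 10 genes described here are known for their induction in sensory neurons whose axons have been cut: Atf3, Sox11, Smad1, Gap43, Stmn2, Sprr1a, Hspb1, Gadd45a, Ecel1 and Flrt3. They were taken by symbol from a count table of 45703 genes, and all 10 were found. The libraries came from 6 replicate cultures of dorsal root ganglia (DRG), the ganglia beside the spinal cord that hold the cell bodies of sensory neurons and their glia. The mice were wild-type C57BL/6 animals of 4 to 6 weeks. The ganglia were digested with Liberase, and the mixed cells grew for 7 days on poly-L-lysine. The medium held 10% serum plus the growth factors EGF and FGF (10 ng/ml), and each sample pooled the RNA of 2 dishes for a poly-A library. All 6 cultures had the same genotype, age and treatment, so they form 1 group. Intact ganglia, freshly dissociated cells and earlier days were not analysed here, so no value below is a change caused by injury or culture.

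Dissociation of a ganglion cuts the axon of every sensory neuron in it. In the animal, a peripheral axon injury sends stress and cytokine signals back to the cell body, where transcription factors such as ATF3, JUN, SOX11 and STAT3 switch on genes for cytoskeletal growth, membrane addition and survival. Several of these genes are also used by Schwann cells, satellite glia or fibroblasts under stress, so a bulk culture holds transcripts from more than 1 source. In bulk RNA, fewer cells of a type and less RNA per cell cannot be told apart.

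The 6 libraries held between 20070639 and 22968642 counts. Levels are given as CPM, the count of a gene scaled to a fixed library total, and levels of different genes are ranked in CPM per kilobase of combined exon length. Of the marker lists used, 15 of 15 neuron genes and 8 of 8 peripheral glia genes reached at least 1 CPM in every culture, and 4 of 4 lymphocyte genes stayed at or under 3 counts. The summed level of the fibroblast list (7 genes, among them Col3a1, Dcn and Pdgfra) was lowest in replicate 1, at 3340.5 CPM, and reached 14103 CPM in replicate 5. That of the mural list (5 genes of contractile vessel-wall cells) ran from 87.9 to 1525 CPM and that of the macrophage list (6 genes) from 12.2 to 126 CPM, with the same cultures at the ends. The summed level of the neuron list (15 genes, no member among them) was lowest in replicate 5, at 978 CPM, and highest in replicate 3, at 1963 CPM.

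All 10 genes exceeded 1 CPM in all 6 cultures, and together they took 0.137% ± 0.0356 of counts (SD, n = 6). Per kilobase, Atf3 stood highest at 244 ± 73.6 CPM per kb, above 99.0% of the 14998 genes tested. Stmn2 followed at 168 ± 62.0, Gap43 at 82.6 ± 26.0 and Gadd45a at 75.5 ± 17.0 CPM per kb. Flrt3 (31.9 ± 5.54), Hspb1 (21.6 ± 6.24), Ecel1 (20.7 ± 13.2) and Sprr1a (18.7 ± 7.94) formed a middle range, above Smad1 (11.3 ± 1.19) and Sox11 (2.66 ± 1.08 CPM per kb; SD, n = 6 for each). The median over the 10 genes was 26.8 CPM per kb, against 7.20 over all genes tested, and 9 of 10 lay above that median. Sox11, the exception, exceeded 27.6% of tested genes.

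**Figure D1:**
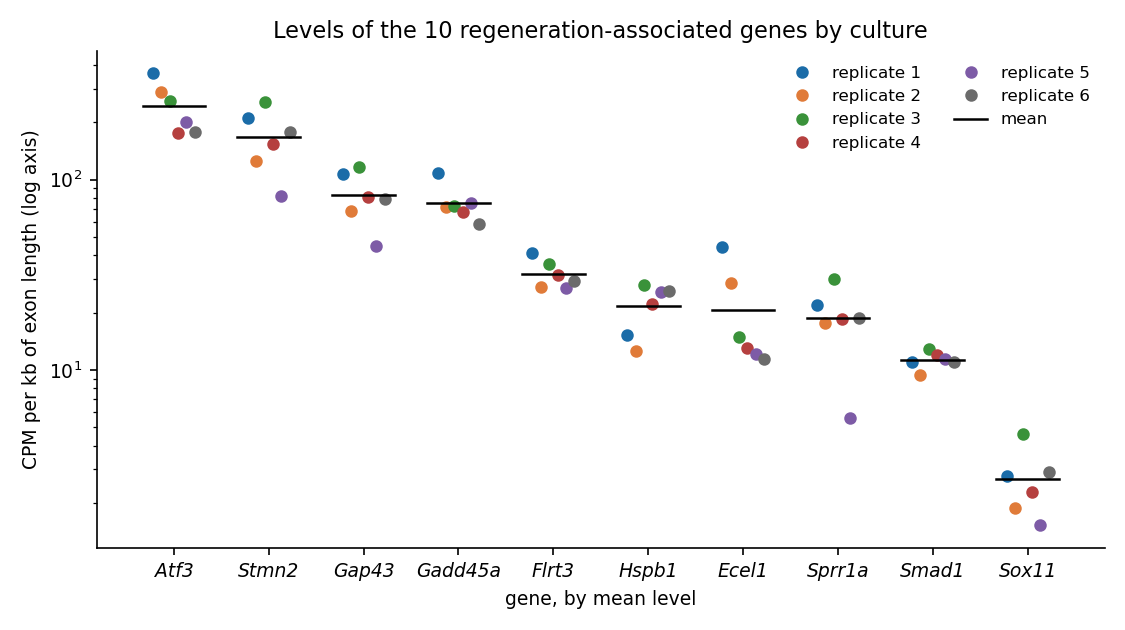
Levels of the 10 genes in CPM per kb of exon length on a log axis, ordered by their mean; each point is 1 replicate culture and each bar the mean of 6. Atf3 and Stmn2 stand highest at 244 and 168 CPM per kb, Sox11 lowest at 2.66, and Ecel1 and Sprr1a have the widest scatter.

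Neighbours in this order were not all separated by more than their spread. Stmn2 exceeded Gap43 in 6 of 6 cultures, by 1.00 ± 0.13 on the log2 scale of CPM per kb. Gadd45a exceeded Flrt3 in 6 of 6 (1.23 ± 0.22), Flrt3 exceeded Hspb1 in 6 of 6 (0.61 ± 0.54), and Smad1 exceeded Sox11 in 6 of 6 (2.17 ± 0.48). The order held in 5 of 6 cultures for Atf3 over Stmn2 (0.58 ± 0.59) and for Sprr1a over Smad1 (0.58 ± 0.82). It held in 4 of 6 for Hspb1 over Ecel1 and in 3 of 6 both for Gap43 over Gadd45a and for Ecel1 over Sprr1a. Neither these pairs nor Atf3 and Stmn2 or Sprr1a and Smad1 differed beyond their spread.

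The replicate cultures differed in the levels of these genes by more than counting error. Each gene's 6 counts were set against its expected counts from the TMM-scaled library sizes by chi-square. This test, with Benjamini-Hochberg adjustment over all 14998 genes, called 10 of 10 members. The same test called 76.3% of all genes, so the count of 10 sets the members little apart. Their median coefficient of variation between cultures was 30.8%, against 12.1% over all genes tested, and 9 of 10 lay above that median. The exception was Smad1. The labels name no batch among the cultures and do not say which animals went into each of the 6. The series text calls the cultures biological replicates. The chi-square p-values measure departure from counting error among these samples. Those of the slope tests below set a slope against the scatter of these samples about the fit, and they cover only these samples.

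Among the transcription factors, ATF3 is a stress-induced member of the ATF/CREB family and a standard marker of injured sensory neurons. Atf3 (chromosome 1, 191170296 to 191183333, minus strand, GRCm38.p6) was counted at 714 CPM in replicate 1, 573 in replicate 2, 511 in replicate 3, 348 in replicate 4, 395 in replicate 5 and 349 in replicate 6. Replicates 1 to 3 all lay above replicates 4 to 6, and the highest culture exceeded the lowest 2.05-fold. The bases just before its start site are shown because they hold a variant of the site that ATF and CREB proteins bind. Capitals mark TTACGTCA, 3 to 10 bases before the RefSeq start, in chr1:191183334-191183433 on the minus strand (GRCm38.p6):
Atf3: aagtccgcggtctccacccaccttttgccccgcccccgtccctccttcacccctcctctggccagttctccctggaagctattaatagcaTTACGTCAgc
This sequence, on either strand, was present in 0.447% of the 32851 RefSeq windows of the same 250 bases before a start site. The consensus TGACGTCA was in 1.55% of them and in 0 of the 8 members' windows. A match is a string of letters and was not tested for binding.

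SOX11, a SRY-box factor of embryonic neurons, is expressed again after axotomy. Sox11 (chromosome 12, 27334268 to 27342718) reached 23.4, 15.9, 38.7, 19.3, 12.9 and 24.4 CPM in replicates 1 to 6. Replicate 3 stood clearly above the others and replicate 5 lowest, a 3.00-fold range. Its counts were fractional in 2 libraries. SMAD1 carries bone morphogenetic protein signals to the nucleus. Smad1 (chromosome 8, 79338395 to 79399428) was the steadiest of the 10, at 35.4, 30.2, 41.7, 38.9, 37.0 and 35.5 CPM. Its range of 1.38-fold still exceeded counting error (edgeR-scaled chi-square test, adjusted p = 1.12e-05 over all genes).

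The growth cone genes shared their highest and lowest cultures. GAP43 is a membrane phosphoprotein of growing axon tips. Gap43 (chromosome 16, 42248552 to 42340651) was counted at 140.1, 89.2, 152, 105, 58.7 and 104 CPM in replicates 1 to 6. STMN2, also called SCG10, binds tubulin dimers and regulates microtubule turnover in axons. Stmn2 (plus strand of chromosome 3, from 8509527) was counted at 402, 239, 488, 294, 156 and 338 CPM. Both were highest in replicate 3, next in replicate 1 and lowest in replicate 5, with 2.59-fold and 3.13-fold ranges.

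SPRR1A is a proline-rich protein of the skin's cornified envelope that injured neurons also make. Sprr1a (chromosome 3, 92483954 to 92485881) was counted at 17.3, 13.8, 23.8, 14.5, 4.39 and 14.7 CPM. Replicate 5, with 92 counts, lay far under the other 5 cultures, whose lowest count was 292, and the range was 5.42-fold, the widest of the 10. From highest to lowest its cultures followed the same order as those of Stmn2, namely 3, 1, 6, 4, 2 and 5. The stretch before its start site is shown because, of the 8 members with a promoter window, it was the one holding AP-1 sites, the sequence that JUN and FOS dimers bind. Capitals mark TGAGTCA, present at 110 to 116 and at 140 to 146 bases before the start, and a TATAAA box at 38 to 43 bases, in chr3:92485882-92486051 on the minus strand (GRCm38.p6):
Sprr1a: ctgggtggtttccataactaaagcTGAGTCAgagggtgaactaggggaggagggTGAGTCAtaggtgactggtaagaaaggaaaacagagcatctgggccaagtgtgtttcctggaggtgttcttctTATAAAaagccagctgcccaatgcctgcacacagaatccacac
At least 1 TGAGTCA on either strand was found in 4.46% of all windows and TATAAA in 12.4%. No window for Gap43 or Stmn2 was matched.

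HSPB1 is a small heat shock chaperone that protects actin filaments and promotes survival of injured sensory neurons. Hspb1 (chromosome 5, 135887919 to 135889563) was counted at 13.8, 11.4, 25.2, 20.03, 23.1 and 23.3 CPM. Replicates 1 and 2 were the lowest, the reverse of their place for Ecel1 and Atf3, and the range was 2.21-fold. Counts were fractional in 2 libraries. The window before its start is shown for its core motifs of the heat shock element, GAANNTTC or TTCNNGAA, which heat shock factor binds in arrays. Capitals mark 2 of them, at 90 to 97 and at 110 to 117 bases before the start, in chr5:135887769-135887918 on the plus strand (GRCm38.p6):
Hspb1: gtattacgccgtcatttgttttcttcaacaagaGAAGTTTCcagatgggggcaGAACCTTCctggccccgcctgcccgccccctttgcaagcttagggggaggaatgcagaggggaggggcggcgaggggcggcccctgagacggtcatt
Such a core was in 12.8% of all windows and in 2 of the 8 members' windows, those of Hspb1 and Smad1.

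GADD45A is induced by DNA damage and other stress and slows cell division. Gadd45a (chromosome 6, 67035096 to 67037407) was counted at 132 CPM in replicate 1 and at 87.9, 88.5, 82.2, 91.8 and 71.9 CPM in replicates 2 to 6. A single culture thus stood apart, and the range was 1.84-fold. A long noncoding gene on the other strand, E230016M11Rik, overlaps it but held at most 40 counts in a library.

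Of the membrane proteins, ECEL1, also named damage-induced neuronal endopeptidase, is a metallopeptidase of the neprilysin family. Ecel1 (chromosome 1, 87142874 to 87157085) was counted at 270.2, 176, 91.0, 79.7, 74.1 and 69.7 CPM in replicates 1 to 6. Replicates 1 and 2 lay well above the other 4, and the coefficient of variation of 63.6% exceeded that of 97.3% of all genes tested. FLRT3 is a leucine-rich repeat transmembrane protein that acts in cell adhesion and axon guidance. Flrt3 (chromosome 2, 140658198 to 140671476) was counted at 186, 124, 163, 142, 122 and 132 CPM. Its range was 1.52-fold. Flrt3 lies within the span of Macrod2 on the other strand, which was counted at 6.35 to 10.2 CPM.

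The members therefore varied in several patterns, which are shown in the heat map of deviations. Sox11, Gap43, Stmn2 and Sprr1a each had their highest value in replicate 3 and their lowest in replicate 5, the same ends as the summed neuron list. Atf3, Ecel1, Gadd45a and Flrt3 each had their highest value in replicate 1, where the fibroblast, macrophage and mural lists were lowest. Atf3 and Ecel1 also had their second highest value in replicate 2, where the mural list summed to 337 CPM and the macrophage list to 20.7 CPM, each next to the lowest. The fibroblast list did not follow there: its sum in replicate 2 was 6077 CPM, above those of replicates 1, 3 and 6. The summed peripheral glia list was highest in replicates 2 and 1, at 6516 and 6497 CPM, and lowest in replicate 5, at 4482 CPM. The part of these lists in the values of the members was not tested.

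**Figure D2:**
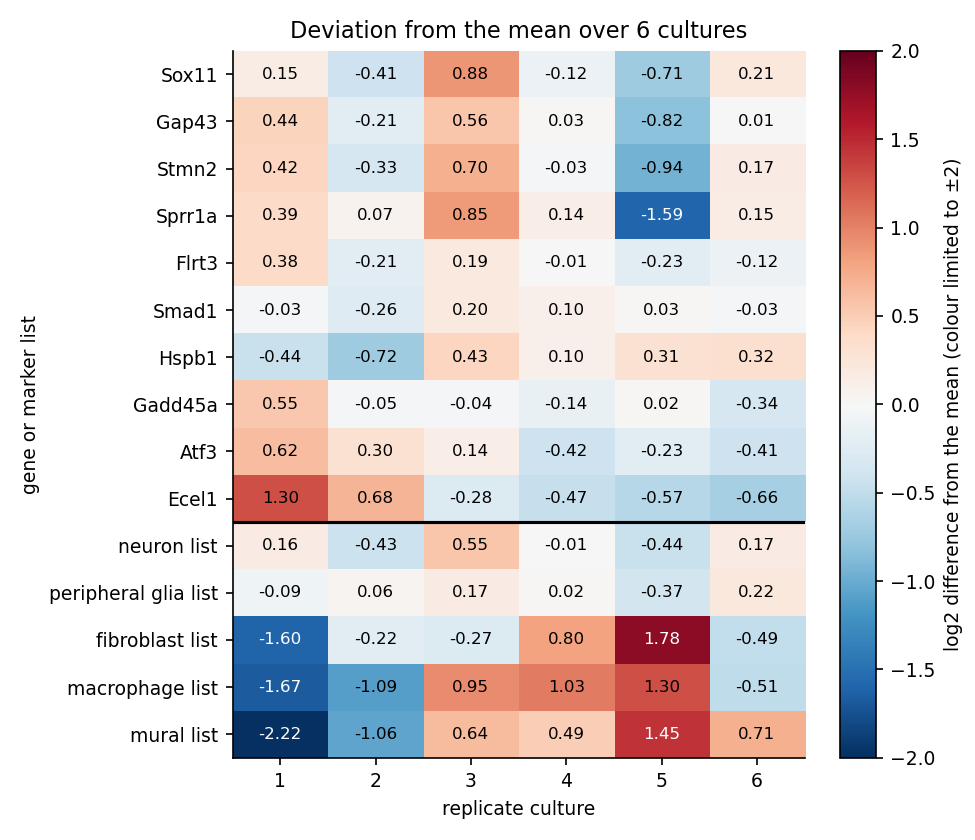
Log2 difference of each gene, or of each marker list score, from its mean over 6 cultures; columns are replicates, red is above and blue below the mean. Sox11, Gap43, Stmn2 and Sprr1a are red in replicate 3 and blue in replicate 5, while Ecel1 and Atf3 are red in replicates 1 and 2.

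Whether the members followed the neuronal content of a culture was asked with a neuron score, the mean over the 15 neuron genes of log2(CPM per kb + 0.1). With edgeR's quasi-likelihood test of a slope on this score, fitted over all 14998 genes with Benjamini-Hochberg adjustment, 0 of 10 members passed an adjusted p of 0.05, and 0% of all genes did. At an unadjusted p under 0.05 the same fit held 4 of the 10, Sox11, Gap43, Stmn2 and Sprr1a, against 9.29% of all genes. The slope was positive for 9 of 10 members, for 7 of 8 peripheral glia genes and for 48.7% of all genes. The neuron genes themselves did not pass either: 0 of 15 had an adjusted p under the threshold in edgeR, although 14 of 15 had an unadjusted p under it. Each of these 15 genes is part of the score, so its relation to the score was partly built in and is no measure for the members. DESeq2's Wald test with the same term called 3 members as higher with the score, Sox11, Gap43 and Stmn2, and 1.81% of all genes as higher and 0.167% as lower (297 genes in all).

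The Sox11 slope was 1.37 ± 0.16 log2 units per unit of neuron score (SE, n = 6; edgeR adjusted p = 0.0787, from 0.0663 to 0.778 over the edgeR alternatives; DESeq2 adjusted p = 1.95e-08). The Stmn2 slope was 1.35 ± 0.25 (edgeR adjusted p = 0.152, from 0.110 to 0.796 over the edgeR alternatives; DESeq2 adjusted p = 3.81e-05). The Gap43 slope was 1.07 ± 0.27 (edgeR adjusted p = 0.288, from 0.230 to 0.824; DESeq2 adjusted p = 0.0113). The Sprr1a slope was 1.36 ± 0.54 (edgeR adjusted p = 0.508, from 0.250 to 0.824; DESeq2 adjusted p = 0.242), and it was 0.72 without replicate 5 and 2.34 without replicate 2. A slope of 1 is what a gene has when it changes by the same fold as the list.

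For Sox11, Pearson's r with the neuron score was 0.97 (exact permutation p = 0.00139, the smallest that 720 pairings can give; adjusted over all genes 0.281) and Spearman's rho was 1.00 (exact permutation p = 0.00278, adjusted 0.336). For Stmn2, r was 0.92 (exact permutation p = 0.0139, adjusted 0.386) and rho 0.94 (exact permutation p = 0.0167, adjusted 0.378). For Gap43, r was 0.86 (exact permutation p = 0.0194, adjusted 0.420) and rho 0.94 (exact permutation p = 0.0167, adjusted 0.378). For Sprr1a, r was 0.76 (exact permutation p = 0.05, adjusted 0.524) and rho 0.94 (exact permutation p = 0.0167, adjusted 0.378). These are 4 of 20 relations computed, for 10 members and 2 scores. With the cultures farthest from the median score left out, replicates 2 and 5, r was 0.998, 0.91, 0.75 and 0.95 in the same order. Both had low scores (3.20 and 3.18), and replicate 3, with the highest score (4.18), stayed in, so these r values lean on it. Without replicate 3 the edgeR slopes were 1.21, 1.51, 1.22 and 1.41, with edgeR adjusted p of 0.778, 0.796, 0.824 and 0.824. None of the 4 relations over all 6 cultures passed the correction over all genes. To pass for r through the smallest p that 720 pairings allow alone, the correction needed at least 417 genes at that p, and 60 had it. The smallest adjusted p for r of any gene was 0.281, so the correction says little about any one gene. The r values with cultures left out were not tested.

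The other 6 members had slopes on the neuron score between -0.08 for Ecel1 and 0.44 for Flrt3, with edgeR adjusted p from 0.569 to 0.991. The slope of Atf3 was 0.10 ± 0.45 and that of Ecel1 -0.08 ± 0.93 (SE, n = 6), so both are loosely bounded. The difference between these slopes and those of Sox11 or Stmn2 was not tested.

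**Figure D3:**
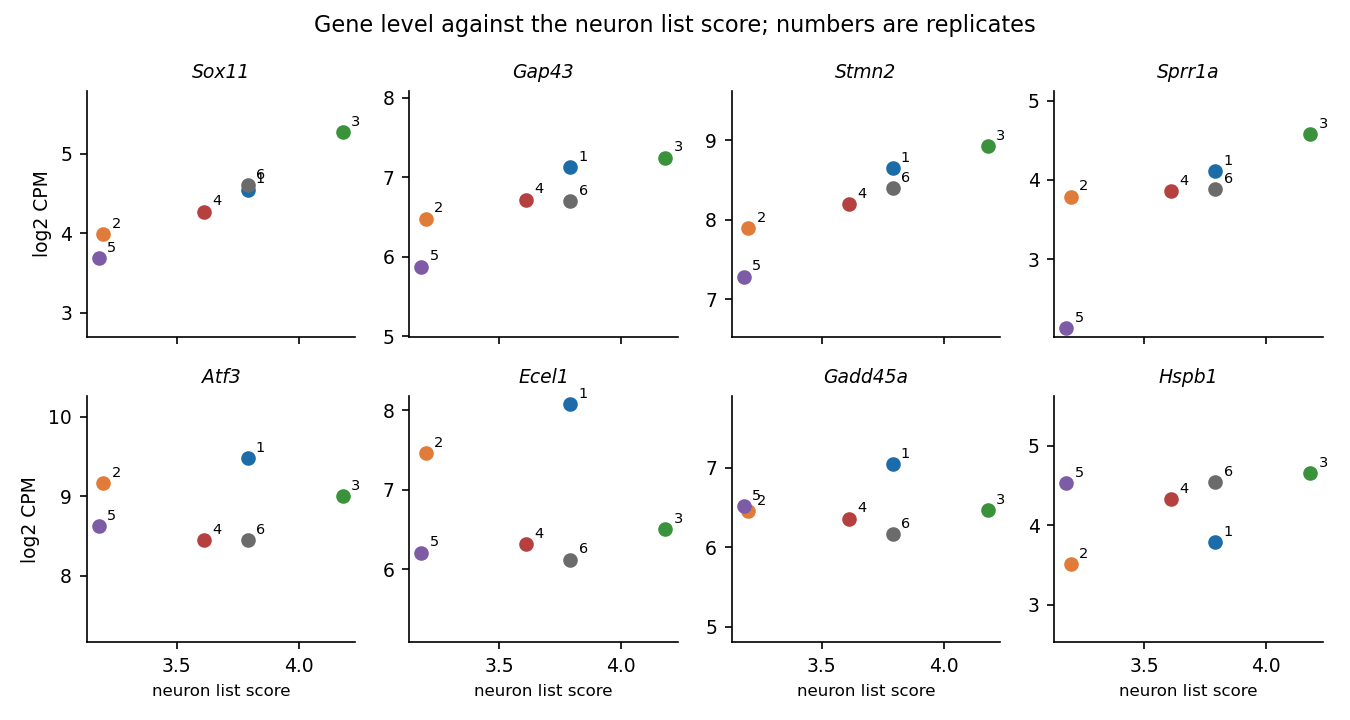
Log2 CPM of 8 members against the neuron list score, with 1 point per replicate culture; every panel spans the same number of log2 units. The upper 4 genes are lowest in replicate 5 and highest in replicate 3, whereas Atf3, Ecel1, Gadd45a and Hspb1 do not have both ends there. Flrt3 and Smad1 are not drawn, and their Pearson's r with the score was 0.70 and 0.69.

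The members were also set against Tubb3, the neuronal beta-III tubulin, as a ratio of CPM within each library, which is compared between libraries only and not read as which gene is higher. Tubb3 counts were fractional in all 6 libraries. The ratio for Gap43 lay between 0.185 and 0.272 (1.47-fold), that for Stmn2 between 0.492 and 0.813 (1.65-fold) and that for Sox11 between 0.0407 and 0.0644 (1.58-fold). Each of these ranges was narrower than that of the gene's own CPM, which also held for Flrt3, Sprr1a, Ecel1 and Atf3. The narrowest ratio range among the members was that of Flrt3, at 1.42-fold against 1.52-fold for its CPM. For Smad1, Hspb1 and Gadd45a the ratio range was wider than that of the CPM. For Sprr1a the ratio ran from 0.0139 in replicate 5 to 0.0396 in replicate 3, a 2.86-fold range. For Ecel1 it ran from 0.149 to 0.524, a 3.52-fold range, and for Atf3 from 0.746 to 1.52, a 2.04-fold range, almost as wide as that of the CPM. The SD of log2 CPM between cultures was 0.55 for Sox11 and became 0.19 once the neuron score of each culture was subtracted. For Stmn2 it went from 0.58 to 0.26, for Gap43 from 0.49 to 0.24 and for Sprr1a from 0.83 to 0.59. For Atf3 it went from 0.42 to 0.54 and for Ecel1 from 0.80 to 0.90. It went from 0.24 to 0.26 for Flrt3, from 0.16 to 0.31 for Smad1, from 0.29 to 0.47 for Gadd45a and from 0.468 to 0.461 for Hspb1. Subtracting the peripheral glia score also lowered the SD of the first 4 genes, to 0.43 for Sox11, 0.45 for Stmn2, 0.38 for Gap43 and 0.66 for Sprr1a. The difference between the scores was not tested.

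The same fit on the fibroblast score called 0 of 10 members in edgeR, while it called 4.85% of all genes as higher and 1.15% as lower with the score. At an unadjusted p under 0.05 it held 6 of 10 members, Atf3, Gap43, Stmn2, Sprr1a, Ecel1 and Flrt3, all with negative slopes, against 24.1% of all genes. DESeq2 called 3 of them as lower, Gap43, Stmn2 and Sprr1a, at adjusted p of 0.00943, 0.00943 and 0.0225, while it called 4.32% of all genes as lower and 7.51% as higher. The steepest edgeR slopes were -0.52 ± 0.17 for Ecel1 (adjusted p = 0.126, from 0.0603 to 0.524 over the edgeR alternatives), -0.49 ± 0.20 for Sprr1a (adjusted p = 0.184, from 0.112 to 0.874) and -0.39 ± 0.13 for Stmn2 (adjusted p = 0.130, from 0.0800 to 0.736). These values leaned on the end cultures: without replicate 5 the slope was -0.09 for Sprr1a and -0.20 for Stmn2, and without replicate 1 it was -0.77 for Sprr1a and -0.28 for Ecel1. Smad1 (0.02 ± 0.05) and Hspb1 (0.16 ± 0.13) had positive slopes, which makes 2 of 10 against 48% of all genes. The slope of Hspb1 was 0.05 without replicate 1. Positive slopes were also few in the neuron list (1 of 15) and in the peripheral glia list (2 of 8), so the members were not alone in this. Pearson's r with the fibroblast score was -0.81 for Gap43 (exact permutation p = 0.0569, adjusted over all genes 0.254) and -0.79 for Stmn2 (exact permutation p = 0.0639, adjusted 0.266), with rho of -0.77 for both (exact permutation p = 0.103, adjusted 0.437). With replicates 1 and 5 left out, r was -0.16 and -0.30, so these relations rest on those cultures.

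For each member, the 3 genes with the most similar course over the 6 libraries were found by Pearson's r of log2(TMM-scaled CPM + 0.5) among 11147 other genes with a mean of at least 5 CPM. With so many candidates and 6 points each, the r values are a description. Sox11 was most like Rtn3, Ppp2r2b and Ccdc92, with r from 0.996 to 0.998. Stmn2 was most like Gdap1l1, Rtn2 and Dync1i1 (all 0.997), and Gap43 was most like Vps39, Amer2 and Tada1 (0.992 to 0.997). Sprr1a was most like BC005624, Zfp595 and Gpr151 (0.992 to 0.997). Atf3 was most like Atxn7l3b, BC106179 and Plxnb3 (0.988 to 0.992), and Ecel1 was most like Hp1bp3, Pls1 and Slc22a23 (0.993 to 0.995). The list for Gadd45a was Uhrf1bp1l, Kif16b and Srpk2, that for Flrt3 was Fam120b, Gng2 and Ngly1, that for Hspb1 was Pcp4l1, Adam22 and Tifa, and that for Smad1 was Trpv1, Gnal and Stk39. No member appeared on the list of another.

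A list of 54 further genes of the axon injury response placed the 10 members in context. Of these, 49 exceeded 1 CPM in all 6 cultures and 1, Vip, was counted at 0 in every library. The filter on low counts kept 51, and the chi-square test called 51 of 51, against 76.3% of all genes. Their median coefficient of variation was 18.0% over the 53 genes with counts, between the 30.8% of the members and the 12.1% of all genes. On the neuron score 0 of 51 passed in edgeR, with 12 at an unadjusted p under 0.05, against 9.29% of all genes. DESeq2 called 6 of the 51: Klf7, Lifr, Stmn4, Crmp1 and Adcyap1 as higher with the score, against 1.81% of all genes, and Lgals1 as lower, against 0.167%.

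Of the 11 transcription factors, Jun, the AP-1 subunit that drives regeneration programmes in neurons and Schwann cells alike, stood highest per kilobase at 193 ± 25.2 CPM per kb (SD, n = 6). Jun was counted at 727 and 706 CPM in replicates 1 and 2 and at 550 to 598 CPM in the other 4, so its high cultures were those of Ecel1. Stat3, which carries signals of the interleukin-6 family, was steady at 418 to 489 CPM. Cebpb was lowest of the 11, at 3.46 CPM per kb.

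Among signals and receptors, Il6st, the shared receptor subunit of the interleukin-6 family, stood highest at 171 CPM per kb, close to Tnfrsf12a, the TWEAK receptor, at 167 CPM per kb. Of the ligands of that family, Cntf lay between 24.0 and 38.2 CPM, Lif between 7.97 CPM in replicate 1 and 70.6 CPM in replicate 5, and Il6 between 0.435 and 2.199 CPM. In the cytoskeleton group Tubb2b (262 CPM per kb, fractional in all libraries) and Marcks (141 CPM per kb), a membrane-bound actin regulator, stood above Map1b (108 CPM per kb), and Basp1, a relative of Gap43 in function, at 22.5 CPM per kb, stood below Gap43. Of 7 adhesion genes, Itga7, the laminin receptor subunit of regrowing axons, reached 174 CPM per kb, and L1cam and Chl1 159 and 122 CPM per kb.

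Of the 12 peptide and enzyme genes, Lgals1 stood highest at 828 CPM per kb, also the highest of all 54 listed. Plat and Anxa1 reached 149 and 121 CPM per kb. The injury-induced neuropeptides averaged 33.7 CPM per kb for Nts, 14.7 for Adcyap1, 14.1 for Gal and 2.51 for Npy. Nts was counted at 72.6, 36.2, 57.0, 32.9, 10.1 and 43.2 CPM in replicates 1 to 6 and Gal at 4.30 to 19.8 CPM. Both were lowest in replicate 5, as were Sprr1a, Stmn2, Gap43 and Sox11. Adcyap1, which encodes the neuropeptide PACAP, lay between 64.0 and 120.3 CPM, and Npy between 0.911 and 2.03 CPM.

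On the fibroblast score 3 of the 51 genes passed in edgeR as higher, against 4.85% of all genes, and 3 as lower, against 1.15%. The former were Lif (slope 0.86, adjusted p = 0.0130), Alcam (0.37, adjusted p = 0.00993) and Anxa1 (0.43, adjusted p = 0.00274), the gene of an anti-inflammatory phospholipid-binding protein. The latter were Nts (-0.76, adjusted p = 0.0225), Map1b (-0.29, adjusted p = 0.0269) and Dpysl5 (-0.31, adjusted p = 0.04996), genes of a neuropeptide and of neuronal cytoskeletal proteins. All 6 lost the call without replicate 5, with edgeR adjusted p from 0.102 for Anxa1 to 0.42 for Dpysl5. Lif was also lost without replicate 1 (adjusted p = 0.0540), Map1b without replicate 1 or 4 (0.103 and 0.0950), and Dpysl5 without replicate 2, 3, 4 or 6 (0.0652 to 0.0803) and with a score that left out the highest fibroblast gene (0.0533). Over all alternatives the adjusted p ran from 3.73e-09 to 0.220 for Lif, from 1.53e-06 to 0.289 for Alcam and from 3.79e-12 to 0.102 for Anxa1. It ran from 2.37e-08 to 0.203 for Nts, from 2.02e-05 to 0.111 for Map1b and from 0.00073 to 0.42 for Dpysl5. The lowest value came from DESeq2 in each case. Of the 51 genes, DESeq2 called 4 as higher with the fibroblast score, against 7.51% of all genes, and 6 as lower, against 4.32%.

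**Figure D4:**
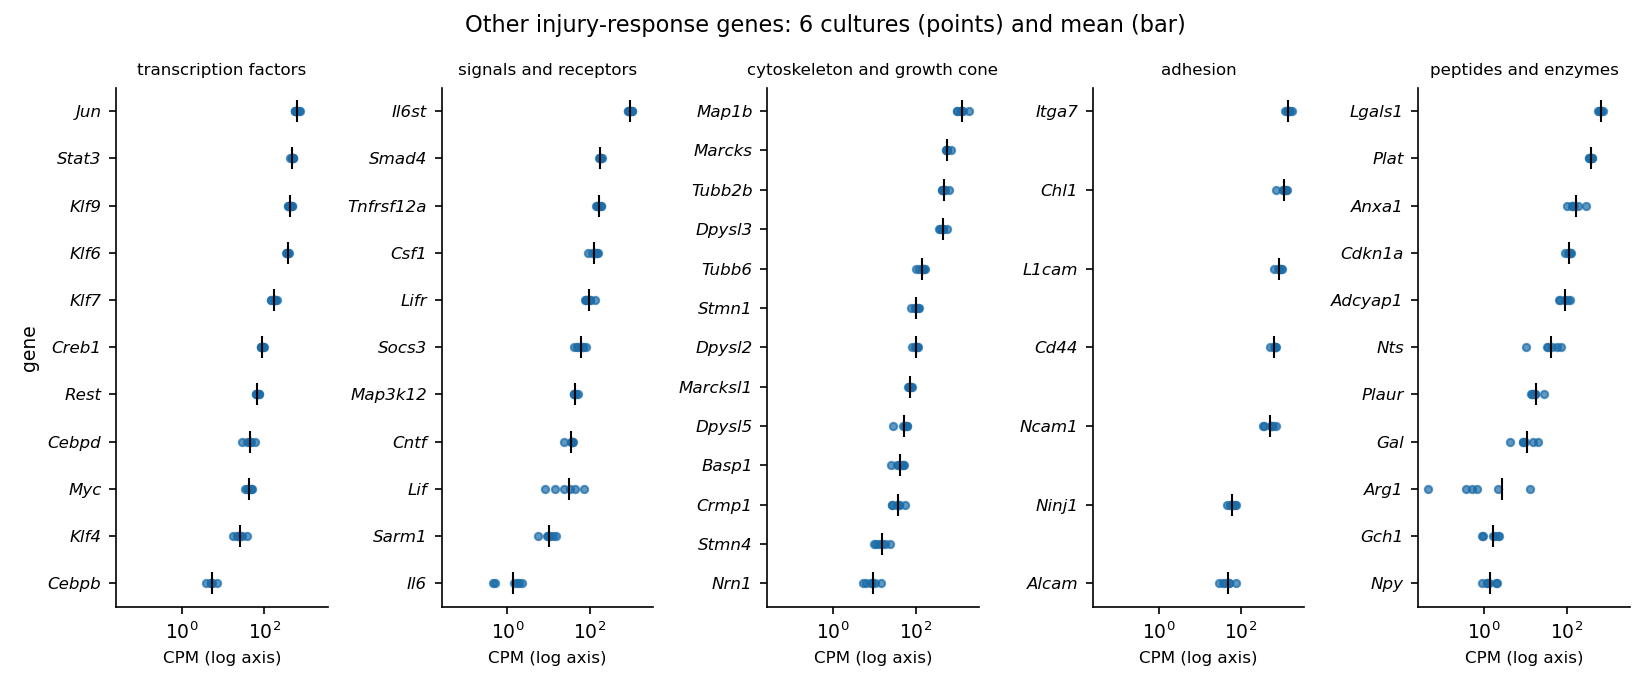
CPM on a log axis of the other injury-response genes by role; points are the 6 cultures and the bar is their mean, with Vip left out because it had 0 counts. Most genes lie within a narrow range, whereas Arg1, Lif, Il6, Nts and Gal, with the highest coefficients of variation (50.3% to 179%), scatter widely between cultures.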

How the data were processed

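The deposited table gives estimated counts per gene for 6 poly-A libraries of 1 group; the authors' processing notes list bcl2fastq 2.20.0.422, cutadapt 2.5, STAR 2.7.2b, featureCounts 1.6.4 and the build GRCm38.p6, per the labels. Between 13.4% and 14.7% of the values in a library were fractions, so reads were shared between genes or copies. The strand setting and the rule for shared reads are not given in the sources used here, and overlapping genes on opposite strands are uncertain. Gene coordinates, exon length and symbols are those deposited. RefSeq windows (GRCm38.p6) were matched for 8 of 10 members.

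Counts were rounded, filtered with filterByExpr (14998 genes) and scaled by TMM in edgeR 4.0.16; DESeq2 1.42.0 was an alternative (R 4.3.3). CPM used library totals. The SE of an edgeR slope was taken as the absolute slope divided by the square root of the F statistic of its test. The chi-square and slope tests were also run on simulated data, with outcomes not reported here. In the simulated slopes, the scatter of each gene between cultures followed the trend over all genes. The members other than Smad1 scattered more than this trend. The simulation therefore does not show how well slopes of these members could be detected. Members, lists and tests were chosen with earlier results of these data known; motifs, windows, ratios to Tubb3 and SDs after subtraction of a score were chosen after their values could be seen. Named genes were the members, the 54 listed injury genes, marker genes, and the 3 genes most like each member. Other columns of per-sample values numbered 0. The labels give no batch.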

Additional observations from a re-analysis of the deposited data

Results flagged for a closer look

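The 10 member levels and 7 scores (6 marker lists and the injury list) were screened for a lone extreme culture. The measure was its distance from the next culture as a share of the full spread of 6, for which Dixon's 95% limit is 0.625. The CPM of Gadd45a exceeded it, with a ratio of 0.671: replicate 1 stood at 132 CPM and the next culture, replicate 5, at 91.8 CPM. Chance flags about 1 in 20 groups, which is 0.85 of these 17 measures. Replicate 1 also had the lowest fibroblast, macrophage and mural summed levels; their part in the value was not tested.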

How the results depend on the processing

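All 10 members varied beyond counting noise under each scaling, without the filter on low counts and without each replicate in turn; with genes of whole counts only, the 7 members left were all called, among 5848 genes called of 7224, since that setting leaves fewer genes to test. With DESeq2's Wald test, the members related to the neuron score went from 0 to 3 and all genes from 0 to 297; for the fibroblast score they went from 0 to 3 and from 901 to 1774. Leaving out single replicates gave 0 members for either score, 0 genes for the neuron score, and 93 to 890 genes for the fibroblast score (93 without replicate 5 and 498 without replicate 4). Slopes near 0 changed sign, and over the fits without 1 replicate they ranged on the neuron score from -0.72 to 0.71 for Ecel1, from -0.12 to 0.47 for Atf3 and from -0.14 to 0.25 for Gadd45a, and on the fibroblast score from -0.29 to 0.061 for Gadd45a. On the neuron score, Ecel1 went from -0.08 to 0.0081 with a score pseudocount of 1, and to 0.71, 0.57 and 0.12 without replicate 2, 3 and 6; Atf3 went from 0.10 to -0.09 and -0.12 without replicate 1 and 5, and Gadd45a from 0.05 to -0.14 without replicate 1. On the fibroblast score, Gadd45a went from -0.13 to 0.061 without replicate 1. The cause was not tested. Ordering by CPM without length left 2 of 10 members at their rank. The mean CPM of each member stayed within 1 SD under both other scalings and without each replicate. No paired analysis was possible because all samples belong to 1 group. Counts per library of 92 and more put counting error well under the spread between cultures for most members.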
